A study of Spinacia oleracea with 12 samples.

Results

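AAE3 encodes oxalyl-CoA synthetase, the enzyme that joins oxalate to coenzyme A, and it is described here by its own gene model, Spo04424, which is 1 of the 25495 genes measured in spinach (Spinacia oleracea). It was chosen by its name, as the first enzyme of CoA-dependent oxalate breakdown. RNA was sequenced from leaf laminae and from roots of PI175311, an accession with high oxalate, and of Bloomsdale, a cultivar with low oxalate, with 3 libraries for each genotype and tissue. All plants were 6 weeks old, grown without any stress treatment, and nitrogen was 200 ppm for every sample by the labels, whereas the methods of the study name a nitrogen-free nutrient solution. Each genotype is a single line, so a difference between them cannot be told apart from any other difference between these lines.

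In the CoA-dependent route, oxalate is first activated to oxalyl-CoA by AAE3 and is then broken down in further steps to formate and carbon dioxide. The route was worked out largely in Arabidopsis thaliana, where plants that lack the enzyme accumulate oxalate. Spinach stores large amounts of oxalate in its leaves, partly as calcium oxalate crystals, and the amount present depends on supply from glyoxylate, oxaloacetate and ascorbate as well as on removal. An RNA level does not give the activity of the enzyme or the flux through it.

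Levels are in FPKM, which divides fragments by gene length and by library size, and whole fragments were recovered from them. The libraries held 18451262 to 25245734 fragments. Correlations between libraries of log2(FPKM + 1) across genes were 0.938 to 0.989 within a group, 0.890 to 0.942 between genotypes within a tissue and 0.664 to 0.770 between leaf and root. The identity of the tissues was not checked against marker genes, because the gene IDs carry no names in the sources used here. Of the 25495 IDs, 0 could be matched to the 39719 entries of the RefSeq table (assembly BTI_SOV_V1), so chromosome, exons and sequence of AAE3 are not given here. The fragments recovered fit a gene length of 2155 bases for AAE3.

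AAE3 was well expressed in every library, and its mean level was higher in PI175311 than in Bloomsdale in both tissues. In leaf it had 104.9, 77.0 and 121.4 FPKM in PI175311 replicates 1, 2 and 3, against 63.6, 78.0 and 37.9 FPKM in Bloomsdale replicates 1, 2 and 3. In root it had 127.1, 121.1 and 79.3 FPKM in PI175311 replicates 1, 2 and 3, against 71.8, 65.9 and 61.4 FPKM in Bloomsdale replicates 1, 2 and 3. The genotypes overlapped in leaf, where PI175311 replicate 2 lay just under Bloomsdale replicate 2, and did not overlap in root. Taken pair by pair, PI175311 was higher in 8 of 9 leaf pairs of libraries and in 9 of 9 root pairs.

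**Figure D1:**
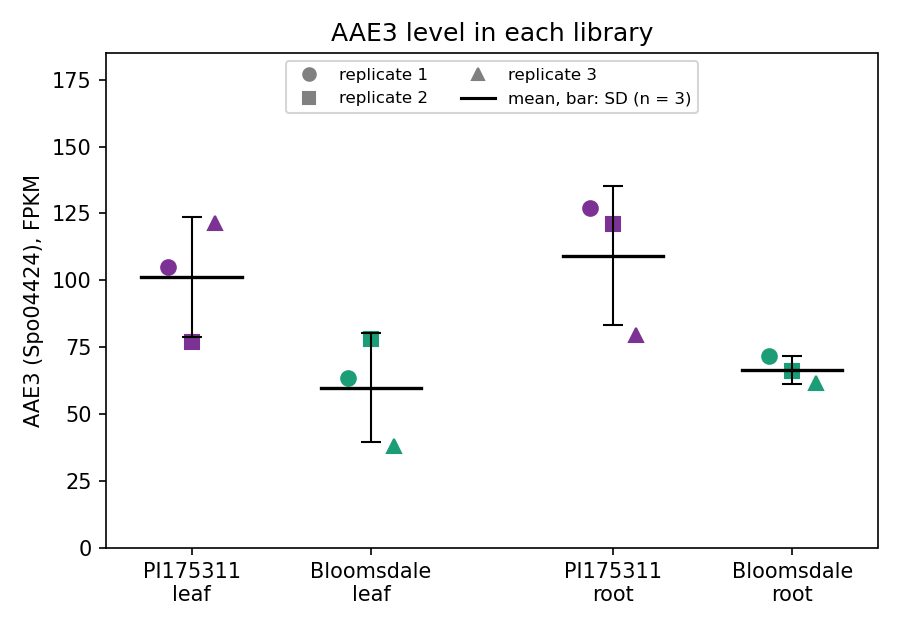
AAE3 level in FPKM (vertical axis) in each library of the 4 groups, with the mean as a line and the SD of 3 libraries as a bar. The 3 PI175311 roots sit between 79.3 and 127.1 FPKM, above the 3 Bloomsdale roots at 61.4 to 71.8 FPKM, whereas the leaf groups touch at 77.0 and 78.0 FPKM.

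These values rested on 1891 to 6790 fragments a library, the fewest in Bloomsdale leaf 3 and the most in PI175311 root 1. Exact 95% Poisson intervals reached from 2.39% to 4.53% to either side of a value, and they cover counting error only. The replicates of a group differed by far more than that: the coefficient of variation was 22.2% in PI175311 leaf, 34.0% in Bloomsdale leaf, 23.8% in PI175311 root and 7.83% in Bloomsdale root. The Bloomsdale roots were thus the most even group, and the Bloomsdale leaves the least even.

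Group means in FPKM were 101 ± 22.4 in PI175311 leaf, against 59.8 ± 20.3 in Bloomsdale leaf, and 109 ± 26.0 in PI175311 root, against 66.4 ± 5.20 in Bloomsdale root (SD, n = 3 each). By mean the order was PI175311 root, PI175311 leaf, Bloomsdale root and Bloomsdale leaf. The PI175311 means lay within each other's SD. The Bloomsdale roots lay within the range of the Bloomsdale leaves (37.9 to 78.0 FPKM), whose mean was under the lowest root. PI175311 leaf and Bloomsdale root, the neighbours of unlike genotype, did not overlap in FPKM as deposited (77.0 to 121.4 FPKM against 61.4 to 71.8 FPKM). With FPKM rescaled to equal library sums (TPM) they overlapped, at 75.6 to 120 TPM against 87.5 to 101 TPM. The share of all genes that separate likewise was not counted. In whole-tissue RNA, fewer cells expressing a gene and less RNA per cell cannot be told apart.

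Within its library AAE3 stood among the higher genes, with 87.9% to 96.9% of the genes above 0 lying below it, and this position does not depend on how libraries are scaled to each other. Counted from the highest gene, it ranked 833, 1080 and 621 in PI175311 leaf replicates 1, 2 and 3, against 1376, 1328 and 2473 in Bloomsdale leaf replicates 1, 2 and 3. In root its rank was 828, 955 and 1204 in PI175311 replicates 1, 2 and 3, against 1697, 1935 and 2067 in Bloomsdale replicates 1, 2 and 3. By rank the genotypes did not overlap in either tissue, with AAE3 nearer the top in all 6 libraries of PI175311. Ranks that separated the genotypes in this direction were common, at 20.0% of the 16764 genes tested in leaf and 17.7% of the 18197 genes tested in root.

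AAE3 was also set against the median gene above 0 of each library. It stood 15.5, 12.8 and 22.4 times above that gene in PI175311 leaf, against 10.5, 10.1 and 6.12 times in Bloomsdale leaf. In root it stood 16.6, 14.8 and 10.4 times above it in PI175311, against 8.08, 7.11 and 6.92 times in Bloomsdale. Measured this way, every PI175311 library was above every Bloomsdale library of its tissue. The share of all genes that separate likewise was not counted. In root the median gene itself was lower in PI175311 (7.65, 8.17 and 7.65 FPKM) than in Bloomsdale (8.89, 9.27 and 8.88 FPKM), while in leaf it overlapped.

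Each tissue was tested with limma on log2(FPKM + 0.1), and a gene was called at a Benjamini-Hochberg adjusted p under 0.05 over all genes tested. In leaf AAE3 was 1.73-fold higher in PI175311 (log2 0.79, SE 0.31, 95% interval 0.086 to 1.50), which did not pass the test (limma adjusted p = 0.141, unadjusted 0.0322). In leaf 10.1% of the genes tested were called, 4.04% higher and 6.08% lower in PI175311 (678 and 1020 genes, or 954 and 850 under median-of-ratios scaling). An exact 2-sided permutation test of AAE3 alone gave p = 0.2 (0.333 after Benjamini-Hochberg adjustment over 5 such tests). Of the genes tested, 9.88% had all 3 PI175311 leaves above all 3 Bloomsdale leaves in FPKM, and AAE3 was not one of them.

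In root AAE3 was 1.61-fold higher in PI175311 (log2 0.69, SE 0.22, 95% interval 0.17 to 1.21), which did not pass the test either (limma adjusted p = 0.0823, unadjusted 0.0176). In root 12.6% of the genes tested were called, 2.93% higher and 9.7% lower in PI175311 (534 and 1765 genes, or 679 and 764 under median-of-ratios scaling). The 3 PI175311 roots were all above the 3 Bloomsdale roots, as they were for 8.77% of the genes tested. The exact 2-sided permutation test gave p = 0.1 (0.25 adjusted over the 5 tests), the smallest that 3 libraries against 3 allow. The call in root depended on scaling and on 1 library: it passed under median-of-ratios scaling (log2 0.92, adjusted p = 0.0442), under quantile normalization (log2 0.86, adjusted p = 0.0384) and without PI175311 root replicate 3 (log2 0.90, adjusted p = 0.0285).

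Over both tissues together AAE3 rose in PI175311, by 1.67-fold (log2 0.74, SE 0.20, 95% interval 0.30 to 1.18, limma adjusted p = 0.0212). In this comparison 26.7% of the 19549 genes tested were called, 6.27% higher and 20.5% lower in PI175311 (1226 and 4002 genes, or 2134 and 2670 under median-of-ratios scaling). Exact 2-sided permutation of the genotypes within each tissue gave p = 0.01 over 400 arrangements (0.05 adjusted over the 5 tests), where 0.005 is the smallest they can give. The call was lost with the replicate number as a block within each tissue, leaves included (log2 0.74, limma adjusted p = 0.0519). It was also lost without PI175311 leaf replicate 3 (log2 0.67, adjusted p = 0.0517). These 2 values are just past the threshold.

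The genotype difference was of like size in leaf and in root. The median gene stood at -0.12 in leaf and -0.23 in root (log2, PI175311 minus Bloomsdale), and relative to it AAE3 was higher by 0.92 in leaf and 0.91 in root. Across the scalings run that distance was 0.91 to 0.93 in leaf and 0.86 to 0.92 in root. The ratio of mean FPKM was 1.69 in leaf and 1.64 in root, and the interaction of genotype and tissue was 0.10 on the log2 scale (SE 0.40, 95% interval -0.78 to 0.99, limma adjusted p = 0.928). The interval is wide and leaves room for a clear difference between tissues in either direction. An interaction was called for 2.26% of the genes tested. The size of the AAE3 difference was moderate among all genes: 73.6% of those tested in leaf and 68.4% of those tested in root had a smaller one.

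AAE3 was close to even between leaf and root within each genotype when FPKM were taken as deposited. Leaf over root was 0.926 in mean FPKM in PI175311 and 0.901 in Bloomsdale. On the log2 scale leaf minus root was -0.10 in PI175311 (SE 0.28, 95% interval -0.73 to 0.52, limma adjusted p = 0.760) and -0.21 in Bloomsdale (SE 0.28, 95% interval -0.83 to 0.42, limma adjusted p = 0.533). Neither passed the test, while 63.4% of the genes tested differed between leaf and root in PI175311 and 64.6% in Bloomsdale. Exact 2-sided permutation tests gave p = 0.6 in PI175311 and p = 0.8 in Bloomsdale (0.75 and 0.8 adjusted over the 5 tests), and a miss does not show that the tissues are alike: the intervals allow a leaf level as low as 0.603 times that of root in PI175311 and 0.561 times in Bloomsdale.

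This evenness was a matter of the scale used. Most genes had lower FPKM in leaf than in root, with a median leaf minus root of -0.58 in PI175311 and -0.64 in Bloomsdale over the 12919 genes at 1 FPKM or more in all 12 libraries. The absolute leaf minus root difference of AAE3 was smaller than that of nearly all of these genes, since only 5.69% lay closer to 0 in PI175311 and 10.3% in Bloomsdale. Relative to the median gene, AAE3 was higher in leaf than in root by 0.47 in PI175311 and 0.43 in Bloomsdale, and then 50.5% and 46.7% of the genes lay nearer to the median than it did. By that measure its position between the tissues was ordinary.

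**Figure D2:**
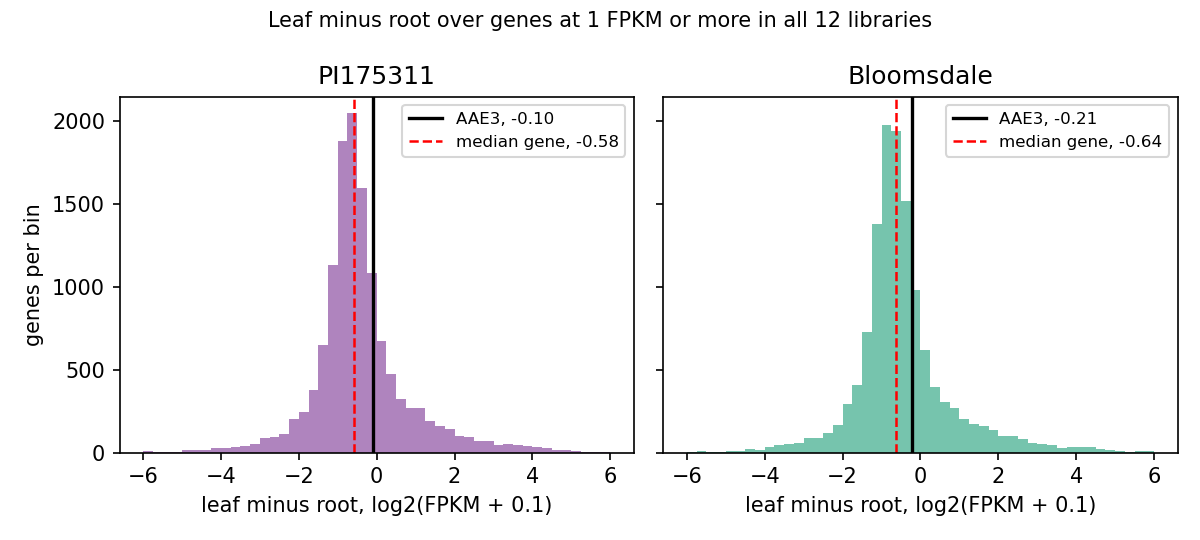
Histograms of leaf minus root on the log2(FPKM + 0.1) scale (horizontal axis) over the 12919 genes at 1 FPKM or more in all 12 libraries, PI175311 left and Bloomsdale right, in genes per bin. AAE3 (black line, -0.10 and -0.21) lies near 0 and to the right of the median gene (dashed red line, -0.58 and -0.64); 49 and 57 genes fall outside the axes.

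Other scalings moved leaf minus root of AAE3 to either side of 0 without a call. With FPKM rescaled to equal library sums (TPM), AAE3 averaged 102 ± 23.2 TPM in PI175311 leaf and 143 ± 37.8 TPM in PI175311 root, and 64.1 ± 22.7 TPM in Bloomsdale leaf and 94.1 ± 6.86 TPM in Bloomsdale root (SD, n = 3 each). Leaf minus root was then -0.48 in PI175311 (limma adjusted p = 0.166) and -0.61 in Bloomsdale (limma adjusted p = 0.0797). With median-of-ratios scaling the order turned: 130 ± 36.1 in PI175311 leaf and 94.1 ± 20.6 in PI175311 root, and 69.5 ± 19.4 in Bloomsdale leaf and 49.8 ± 3.61 in Bloomsdale root, in rescaled FPKM (SD, n = 3 each). Leaf minus root was then 0.46 in PI175311 and 0.44 in Bloomsdale. The genotype difference kept its direction under every scaling run in both tissues.

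**Figure D3:**
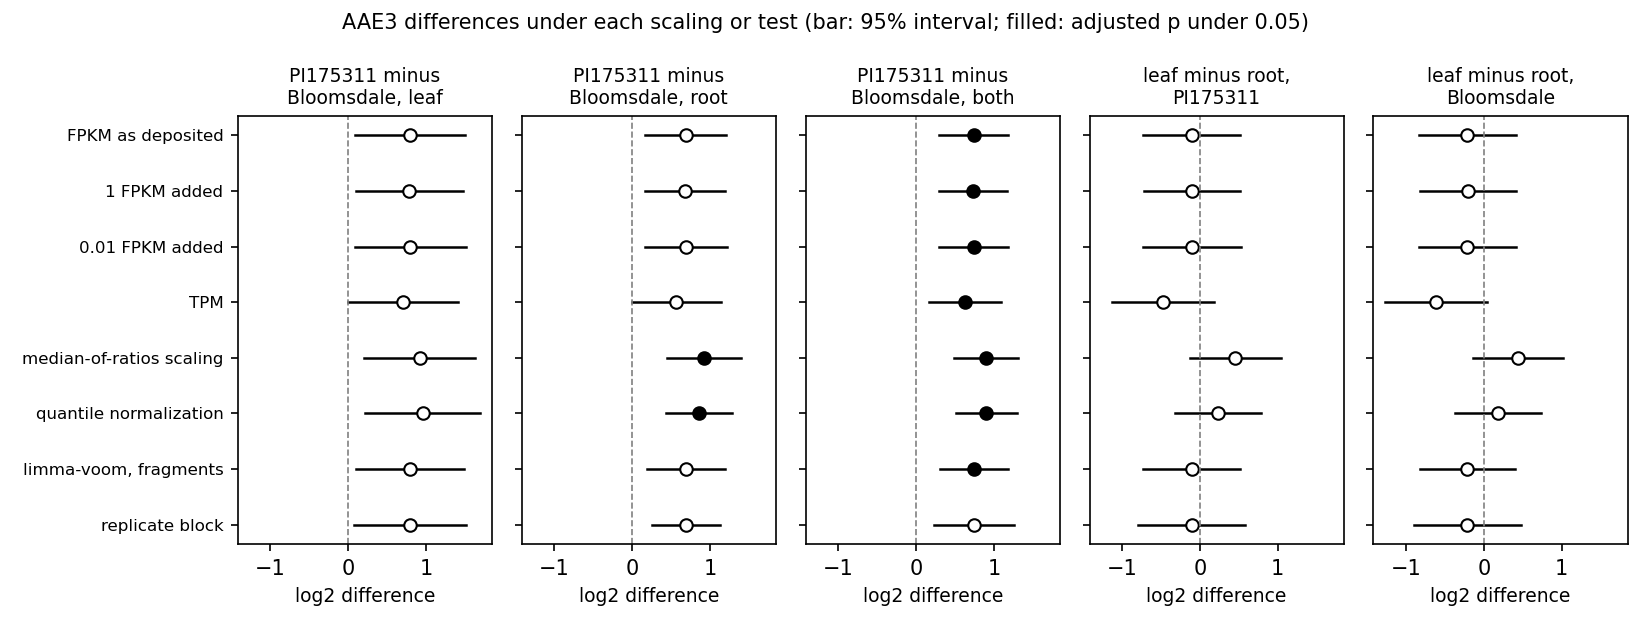
AAE3 log2 differences (horizontal axis, with 95% intervals) for 5 comparisons, one row for each scaling or test, where a filled point has an adjusted p under 0.05. All points for PI175311 minus Bloomsdale lie right of 0, between 0.56 and 0.96, while those for leaf minus root lie on both sides of 0, between -0.61 and 0.46.

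The spread of AAE3 between replicates was above that of the median gene. Its SD of log2(FPKM + 0.1) over the 12 libraries was 0.51, against 0.57 for the median of the 12919 genes, and 40.2% of them had a lower SD. Its SD within groups was 0.37, against 0.29 for the median gene, and 69.6% had a lower one. Of the AAE3 sum of squares, genotype held 58.2%, tissue 2.61%, their interaction 0.287% and replicates 38.9%.

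The study names 3 putative OXDC-like genes, after fungal oxalate decarboxylase, an enzyme that splits oxalate to formate and carbon dioxide directly. By the study they resemble the fungal genes only poorly, their function is unproven, and such activity has not been shown in plants. None of these 3 spinach genes was called higher in PI175311. Spo19759 averaged 103 ± 18.9 FPKM in PI175311 leaf and 125 ± 27.7 FPKM in Bloomsdale leaf, and 19.4 ± 4.01 FPKM in PI175311 root and 42.5 ± 12.9 FPKM in Bloomsdale root (SD, n = 3 each). It was lower over both tissues (log2 -0.68, limma adjusted p = 0.0259), a call lost under quantile normalization (-0.50, adjusted p = 0.0649) and without PI175311 leaf 2 or root 3, Bloomsdale leaf 2, or Bloomsdale root 1 or 2 (-0.59 to -0.62), and it was not called in leaf alone (log2 -0.27, adjusted p = 0.528). In root alone it was not called either (log2 -1.09, limma adjusted p = 0.0591), but it was with the replicate block (adjusted p = 0.0208), in 1 fit over all 12 libraries (0.0241), in TPM (-1.22, 0.0401) and without Bloomsdale root replicate 3 (-1.38, 0.0429). Spo25084 was not called in leaf (log2 -0.65, limma adjusted p = 0.144) or in root (log2 0.16, adjusted p = 0.523), and Spo06441 stayed under 1 FPKM in every library and was not tested.

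Of the OXDC-like genes, Spo19759 was called higher in leaf than in root and Spo25084 lower, though the call of Spo25084 in Bloomsdale depended on scaling. Spo19759 was 5.32-fold higher in leaf than in root in PI175311 and 3.00-fold higher in Bloomsdale (limma adjusted p = 2.7e-05 and 0.000484). Spo25084 was lower in leaf, at 0.337 times the root level in PI175311 and 0.590 times in Bloomsdale (limma adjusted p = 9.2e-05 and 0.00832). In Bloomsdale its leaf minus root of -0.76 was close to the -0.70 of the median of all genes tested, and the call was lost under median-of-ratios scaling (-0.11, adjusted p = 0.726) and quantile normalization (-0.45, adjusted p = 0.0992). The other 3 of these 4 calls held in all 22 other settings. The sum of the 3 genes gives a base within each library that no scaling between libraries can move. AAE3 stood at 0.522 to 0.792 of that sum in PI175311 leaf, against 0.194 to 0.349 in Bloomsdale leaf, and at 0.474 to 0.793 in PI175311 root, against 0.362 to 0.404 in Bloomsdale root. The genotypes did not overlap in either tissue in this ratio, which was chosen after the values were seen and was not tested. The share of all genes that separate likewise over this base was not counted. In leaf the sum itself was lower in PI175311 (148 to 159 FPKM) than in Bloomsdale (182 to 228 FPKM), so the leaf ratio does not reflect AAE3 alone. In root the sums overlapped.

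AAE3 was set beside the 14 other oxalate genes whose ID the study prints, most of which the study picked from these same libraries, so that their direction is no independent evidence. In leaf 9 of the 14 could be tested, 5 were called higher in PI175311 and 0 lower, with a median log2 of 1.24, against -0.12 over all genes. Of all genes tested in leaf, 4.04% were called higher and 6.08% lower. Among the list genes called, Spo12360 reached 1 FPKM only in the PI175311 leaves. In root 10 could be tested, 1 was called higher and 0 lower, with a median of -0.12, against -0.23 over all genes. Of all genes tested in root, 2.93% were called higher and 9.7% lower. Over both tissues 13 could be tested, of which 6 were called higher and 1, Spo19759, lower, beside 6.27% of all genes called higher and 20.5% called lower. Among those called higher, Spo04579, Spo00830 and Spo26769 reached 1 FPKM only in PI175311 libraries. They were tested only because of the genotype in which they are high, so their calls are no support. Leaf differed from root for 7 of 13 in each genotype, 4 higher and 3 lower in leaf in PI175311 and 2 higher and 5 lower in leaf in Bloomsdale. Over all genes tested, 63.4% were called in PI175311 (15.9% higher and 47.5% lower in leaf) and 64.6% in Bloomsdale (14.6% higher and 50.0% lower), so the list's share was no higher than that of all genes. Under median-of-ratios scaling the calls over all genes split into 4561 higher and 4966 lower in PI175311 and 4440 higher and 4986 lower in Bloomsdale, against 3108 and 9295 in PI175311 and 2853 and 9783 in Bloomsdale as deposited. Within every library AAE3 ranked between 2 and 5 among the 15 genes by FPKM, and ascorbate peroxidase (APX, Spo08328) was above it in all 12.

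**Figure D4:**
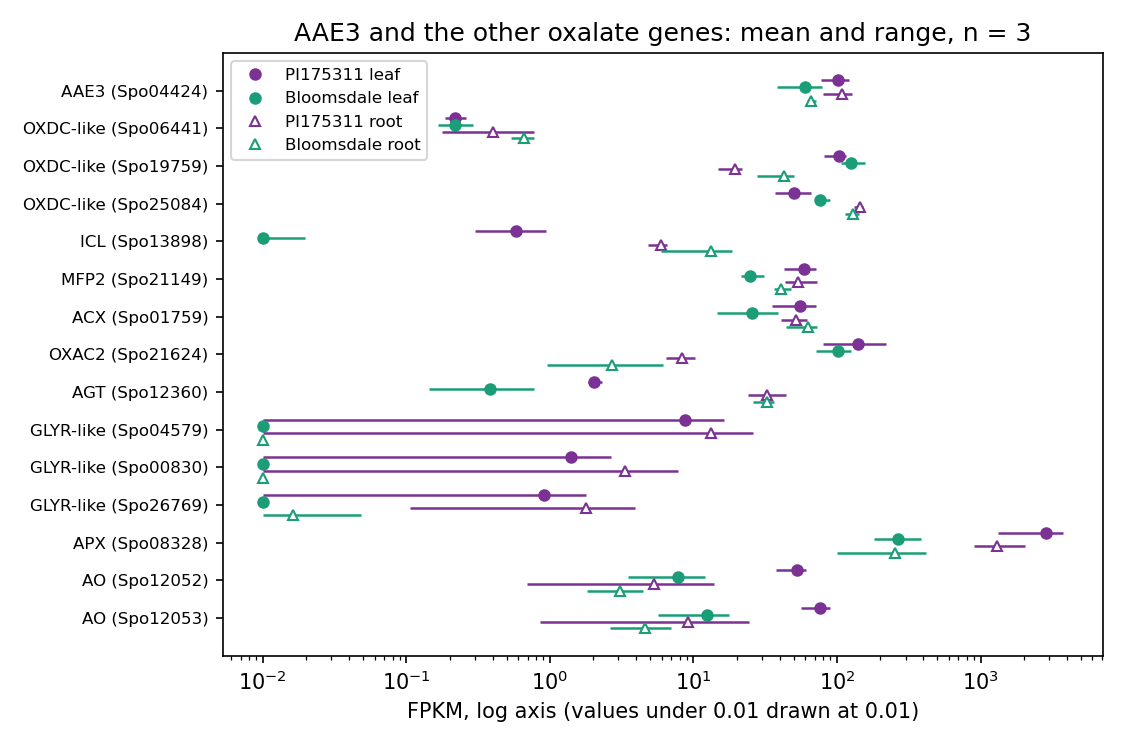
Mean and range of FPKM (horizontal log axis) in the 4 groups, 3 libraries each, for AAE3 and 14 other oxalate genes, with values under 0.01 drawn at 0.01. AAE3, at the top, keeps within 37.9 to 127.1 FPKM in all 4 groups, whereas OXAC2 and AGT shift between leaf and root and APX between genotypes.

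By role, the 5 genes called in leaf belong to the ascorbate route and to the supply and removal of glyoxylate. In the ascorbate route, in which ascorbate is oxidised and cleaved to oxalate, APX rose 3.37 on the log2 scale (limma adjusted p = 0.00440), and the ascorbate oxidases Spo12052 and Spo12053 rose 2.87 and 2.74 (adjusted p = 0.00856 and 0.00847), calls lost in 1 fit over all 12 libraries (adjusted p = 0.0544 and 0.0830). APX was the 1 gene of the list called in root (log2 2.50, limma adjusted p = 0.0456), a call that held in 7 of 17 other settings and was lost without any 1 of the 6 root libraries (1.94 to 2.98). AGT (Spo12360), a putative alanine-glyoxylate aminotransferase that would turn glyoxylate into glycine, rose 2.37 in leaf (limma adjusted p = 0.0337) at levels of 2.02 FPKM in PI175311 and 0.380 FPKM in Bloomsdale, a call lost with 0.01 FPKM added (2.74, adjusted p = 0.0524) and without Bloomsdale leaf replicate 1 (2.19) or 3 (2.00). With 1 FPKM added it was 1.16 and called. In leaf AGT reached 1 FPKM only in the PI175311 libraries and was tested through them alone, so its leaf call is no independent evidence. OXAC2 (Spo21624), a putative oxaloacetate acetylhydrolase, averaged 140 ± 72.6 FPKM in PI175311 leaf and 101 ± 27.1 FPKM in Bloomsdale leaf (log2 0.37, limma adjusted p = 0.592), and 8.35 ± 1.92 FPKM in PI175311 root and 2.72 ± 2.94 FPKM in Bloomsdale root (log2 2.07, adjusted p = 0.101; SD, n = 3 each). Its root difference was called in 1 fit over all 12 libraries (adjusted p = 0.0436) and without Bloomsdale root replicate 3 (2.89, adjusted p = 0.0178).

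MFP2 (Spo21149), a multifunctional enzyme of fatty acid beta-oxidation, also averaged higher in PI175311 in both tissues. It had 71.5, 42.5 and 62.9 FPKM in PI175311 leaf, against 21.4, 31.1 and 21.9 FPKM in Bloomsdale leaf, and 45.3, 72.7 and 43.2 FPKM in PI175311 root, against 39.2, 47.5 and 36.2 FPKM in Bloomsdale root. The genotypes did not overlap in leaf and overlapped in root. Of all genes tested in leaf, 9.88% likewise had all 3 PI175311 leaves above all 3 Bloomsdale leaves. MFP2 rose in leaf (log2 1.24, limma adjusted p = 0.0231, lost at 1.08 to 1.17 without leaf replicate 1 or 3 of either genotype) and over both tissues (log2 0.80, adjusted p = 0.0110), and its Pearson r with AAE3 over the 12 libraries, which share genotype and tissue, was 0.802.

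The lowest AAE3 values within PI175311, 77.0 FPKM in leaf replicate 2 and 79.3 FPKM in root replicate 3, fell in the 2 libraries of that genotype in which Spo04579 was listed at 0. Spo04579 is a glyoxylate/succinic semialdehyde reductase-like gene. It had 16.4 and 9.64 FPKM in PI175311 leaf replicates 1 and 3 and 13.6 and 26.1 FPKM in PI175311 root replicates 1 and 2, and it was at 0 in all 6 Bloomsdale libraries. MFP2, too, was lowest within PI175311 in those 2 libraries. This coincidence was noticed in the values and was not tested.

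Finally, the genes whose pattern was most like that of AAE3 were ranked by Pearson r of log2(FPKM + 0.1) over the 12 libraries, which share genotype, tissue and depth. Among 12918 genes at 1 FPKM or more in all 12 libraries the median r was 0.050 and 124 genes had r of at least 0.8. The 5 highest were Spo08403 (0.965), Spo21565 (0.940), Spo21748 (0.933), Spo25508 (0.932) and Spo02644 (0.931), none of which has a name in the sources used here. Spo08403 averaged 32.0 FPKM in PI175311 leaf, against 19.8 FPKM in Bloomsdale leaf, and 34.1 FPKM in PI175311 root, against 23.0 FPKM in Bloomsdale root, the same order of groups as for AAE3. All 5 had higher means in PI175311 in both tissues, by 1.11 to 2.17 times. Because genotype held 58.2% of the AAE3 sum of squares, genes picked by r with AAE3 share this direction by their choice. Their group means are therefore no independent evidence.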

How the data were processed

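The authors deposited FPKM for each gene and library. For their making, the study's methods give the SpinachBase genome, TopHat 2.0.12, Bowtie 2.2.3 and HTSeq 0.6.1, whereas the submitters' processing notes list fastp, HISAT2 2.1.0 and featureCounts. The genome build and the strand setting are not given in the sources used here. Whole fragments were solved from the deposited FPKM for 21552 of 21554 genes above 0 in at least 6 libraries (tolerance 1e-04 fragments plus 2e-08 of their number), and for 0 of 2000 when library totals were altered.

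Genes reaching 1 FPKM in 3 or more libraries were tested on the log2(FPKM + 0.1) scale with limma 3.58.1 in R 4.3.3 (trend and robust options), 6 libraries in each tissue fit and 12 libraries in 4 groups in the fit over both, with Benjamini-Hochberg adjustment over all genes tested. A fold change on this scale understates the change of low genes. Exact permutation tests used numpy 2.4.6 and the Poisson intervals scipy 1.17.1, with pandas 2.3.3 in Python 3.11.15, and plots matplotlib 3.10.9. The fit was tested on simulated data. AAE3, the oxalate genes, the rule for named genes (AAE3, the 14 others and the 5 with the highest r) and the tests were chosen with earlier results of these data known. Alternatives were other pseudocounts, filters and scalings, limma-voom on recovered fragments, limma without its options, 1 fit over all libraries, a replicate block, and each replicate left out.

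Deviations of same-numbered roots of the genotypes correlated at 0.219, 0.200 and 0.219, which was read as a sign that roots pair by number. Deviations are taken from the mean of 3 libraries, so these values are not independent. The main fits and the permutation tests did not use this pairing. With the replicate block the limma adjusted p of AAE3 went from 0.0823 to 0.0603 in root and from 0.0212 to 0.0519 over both tissues. The leaves (0.042, -0.190 and -0.162) were not taken as paired. The block over both tissues was nevertheless set by number in leaf as well as in root. Same-numbered leaf and root libraries correlated at 0.042, -0.182 and -0.183 in PI175311 and at -0.146, 0.264 and 0.318 in Bloomsdale. The main fit over both tissues and its permutation test treat leaf and root libraries as independent. By the study's methods, RNA came from 3 independent plants, and whether a leaf and a root library with the same number share a plant is not stated in the sources used here.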

Additional observations from a re-analysis of the deposited data

Results flagged for a closer look

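Of the results above, 1 differed between tissues by a test of the difference itself. For isocitrate lyase (ICL, Spo13898), which releases glyoxylate from isocitrate, the genotype difference in leaf exceeded that in root by 3.56 on the log2 scale (limma interaction, adjusted p = 0.0241). It averaged 0.576 FPKM in PI175311 leaf and 0.00656 FPKM in Bloomsdale leaf, and 5.90 FPKM in PI175311 root and 13.2 FPKM in Bloomsdale root. The leaf levels are low, the leaf fit did not test it, and the interaction was called in 13 of 21 other settings. It was lost with 1 FPKM added (1.55, limma adjusted p = 0.0934), with the replicate block (3.56, adjusted p = 0.0746), with limma-voom (6.21, adjusted p = 0.0851) and without PI175311 leaf replicate 1 or 3, Bloomsdale leaf replicate 1 or 3, or Bloomsdale root replicate 2 (3.20 to 3.65). With 0.01 FPKM added it was 6.21 and called.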

How the results depend on the processing

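The AAE3 difference between genotypes was positive in every setting run. In leaf it was called in none of 17 settings (0.70 to 0.96 with all libraries, adjusted p = 0.0896 to 0.182; 0.50 to 1.02 without 1 library). In root it became called under median-of-ratios scaling (0.92) and quantile normalization (0.86), and leaving out 1 library gave 0.56 (without PI175311 root 1) to 0.90 (without PI175311 root 3, the 1 such fit that was called). Over both tissues it was called in 9 of 10 settings with all libraries and in 11 of 12 fits without 1 library, which gave 0.59 to 0.85. With the replicate block it was 0.74 (limma adjusted p = 0.0519), and the block left leaf and root uncalled (adjusted p = 0.164 and 0.0603). Leaf minus root reversed under median-of-ratios scaling (0.46 in PI175311, 0.44 in Bloomsdale) and quantile normalization (0.23 and 0.18), and leaving out 1 library gave -0.32 to 0.079 in PI175311 and -0.43 to 0.089 in Bloomsdale. The interaction without 1 library was -0.19 to 0.33. The cause of these shifts was not tested. The number of calls in the oxalate list, 6 from 5 genes in leaf and 1 of these, APX, again in root, was 4 to 7. OXAC2 in leaf, not called in any setting, was -0.020 to 0.71 without 1 library. With 3 libraries a group, replicate spread and not depth limits each AAE3 value. Over all genes, the number called was 1698 in leaf (988 to 2522 with all libraries, 643 to 1950 without 1), 2299 in root (1443 to 3758, and 139 to 2179), 5228 over both tissues (3381 to 6131, and 3298 to 5141) and 442 for the interaction (130 to 942, and 74 to 800).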
